A study of Mus musculus with 12 samples.

Results

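Transcripts of the insulin-like growth factor 1 (IGF1) system were followed in 3T3-L1 cells depleted of PRMT1 at day 1 and day 3 of adipogenic induction. The 9 genes, of 39423 in the count table, were chosen by name: the ligand Igf1, its receptor Igf1r, the binding protein genes Igfbp2 to Igfbp7, and Pappa, which encodes a protease of binding proteins. Earlier results of these data were known when they were chosen. Counts of called genes beside the shares of all genes are therefore descriptions and no test of the set. PRMT1 is a protein arginine methyltransferase, and 3T3-L1 is an established mouse preadipocyte line that accumulates lipid when induced. Cells had been transfected with a nontargeted control siRNA (labelled NC, here siCtrl) or with siRNA against PRMT1 (labelled siPRMT1), and induced 2 days after confluence. All cells, controls included, received the same inducing cocktail, labelled MDI and here called DMI, which holds dexamethasone, 3-isobutyl-1-methylxanthine and insulin. RNA was taken after 24 h (day 1) or 72 h (day 3), giving 4 conditions with 3 libraries each. Which of the PRMT1 siRNAs was used for sequencing is not given in the sources used here, and nothing in the labels says that the libraries of a condition came from separate cultures, so p-values measure only the spread between these libraries.

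IGF1 acts on cells through IGF1R, a receptor tyrosine kinase, and insulin at the high concentrations of such cocktails also activates that receptor. The IGF-binding proteins are secreted carriers that bind IGFs and mostly keep them from the receptor. PAPP-A, the product of Pappa, cleaves IGFBP4 and IGFBP5 outside the cell and so frees bound IGF, and the stanniocalcins STC1 and STC2 inhibit it. Growth hormone acts on Igf1 transcription through its receptor, JAK2 and STAT5.

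Total counts per library ranged from 15116462 to 42357137, and levels are given as the deposited FPKM (fragments scaled by exon length and library size), which allows levels of different genes to be compared. Prmt1 itself, the targeted gene, averaged 85.8 ± 4.71 FPKM (SD, n = 3) with siCtrl and 41.3 ± 2.61 with siPRMT1 at day 1, and 124 ± 15.1 and 67.4 ± 4.92 at day 3. Its log2 fold change was -1.11 at day 1 (SE 0.0758, adjusted p = 9.85e-04, edgeR quasi-likelihood test) and -0.88 at day 3 (SE 0.0883, adjusted p = 1.22e-05). Replicate 3 of siCtrl at day 1 stood apart from the other libraries of its condition. The squared difference of its counts from theirs averaged 30.8 and 50.6 times the counting expectation per gene, against 4.14 to 15.8 for every other pair of replicates, so results that rest on it are given with and without it. Of the adipocyte markers, 2 of 5 tested, Pparg and Cebpa, were called lower in siPRMT1 cells at day 1 and 2 of 6, Adipoq and Plin1, at day 3, when 1.61% and 3.8% of all genes were. The summed FPKM of all 6 ranged from 144 to 149 with siCtrl and from 109 to 123 with siPRMT1 at day 1, and was 2068 to 2239 and 1627 to 1843 at day 3. The 6 preadipocyte and fibroblast markers summed to 437 to 528 and 429 to 468 FPKM at day 1 and to 215 to 242 and 224 to 279 at day 3, where Pdgfra was called higher. Macrophage, endothelial, skeletal muscle and hepatocyte lists summed to at most 6.53 FPKM in any library, with Ptprc, Myod1 and Ttr at 0 throughout, and of these lists Cdh5 and Des were called lower at day 3. In bulk RNA, fewer cells of a type and less RNA per cell cannot be told apart, and the part of these markers in the results that follow was not tested.

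The 9 genes differed widely in level. Igfbp4 and Igfbp7 were the most abundant, with 157 to 254 and 146 to 228 FPKM over the 12 libraries. Igfbp6 ranged from 10.3 to 31.8 FPKM, Pappa from 1.82 to 11.6, Igfbp3 from 3.89 to 8.25, Igf1r from 4.83 to 6.34 and Igf1 from 1.53 to 3.18. Igfbp2, the gene of a carrier made by many preadipocytes and by liver, had at most 5 counts in any library and 0 counts in 5 of them, where 3 counts would have given 0.0787 to 0.14 FPKM. Igfbp5, whose product is a PAPP-A substrate, had 2 to 17 counts per library. Over the 3 libraries of a condition, Igfbp2 counts summed to 9 in siCtrl (exact 95% Poisson interval 4.12 to 17.1) and 1 in siPRMT1 (0.0253 to 5.57) at day 1, and to 2 (0.242 to 7.22) and 5 (1.62 to 11.7) at day 3. Igfbp5 counts summed to 35 (24.4 to 48.7) and 24 (15.4 to 35.7) at day 1 and to 12 (6.2 to 21) and 28 (18.6 to 40.5) at day 3. These intervals cover counting error only, and both genes fell below the count filter of the comparisons between 2 conditions, so 7 of the 9 genes were tested there.

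**Figure D1:**
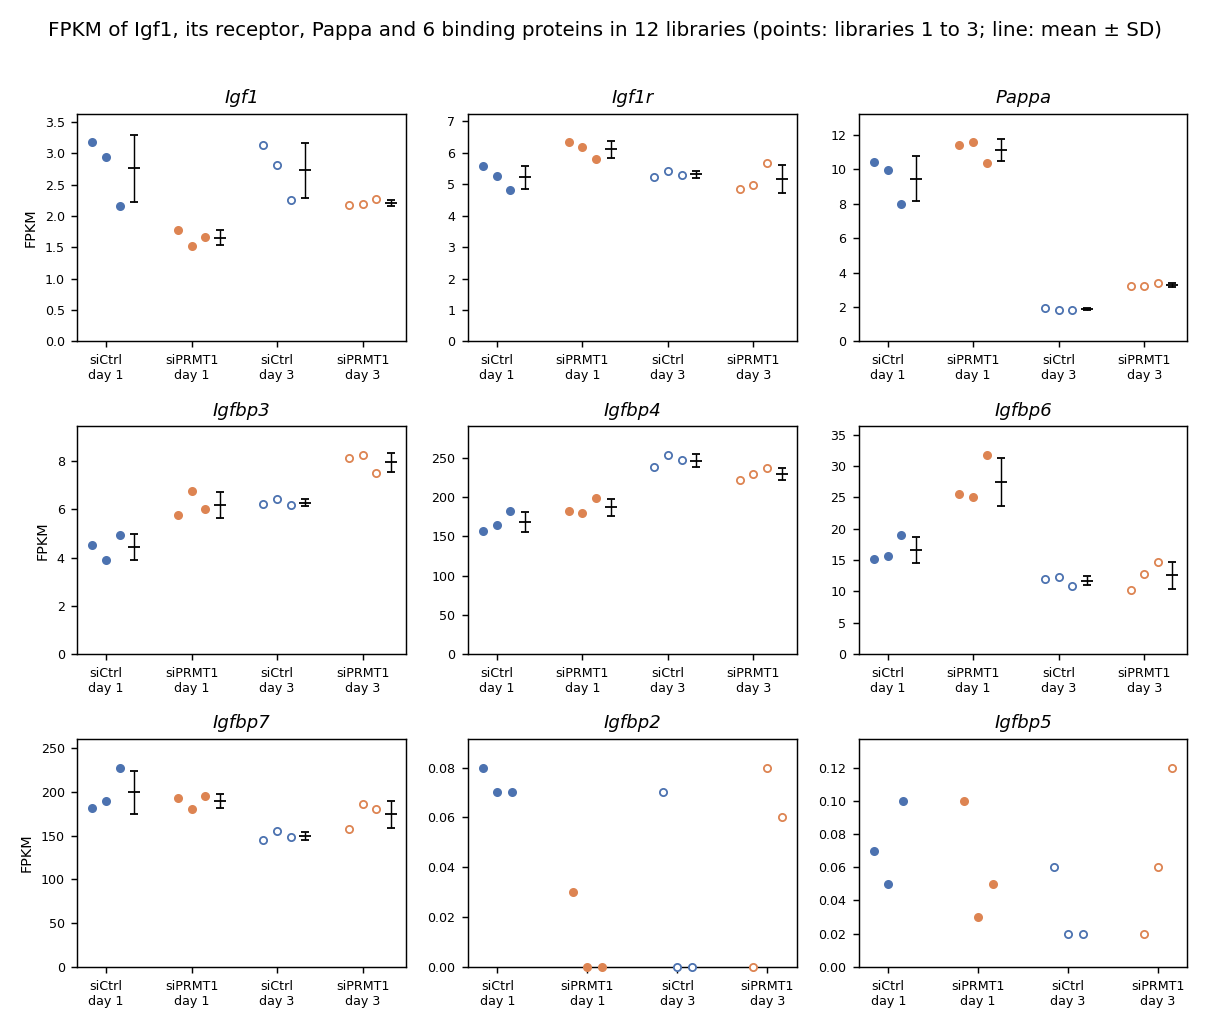
FPKM (y axis, linear from 0, own scale per gene) of each of the 9 genes in 4 conditions (x axis), with 1 point per library in replicate order 1 to 3, filled at day 1 and open at day 3, and the mean ± SD beside them (not drawn for Igfbp2 and Igfbp5, which had few counts). Igf1 is lowest in siPRMT1 cells at day 1 (1.53 to 1.78), Igfbp6 is highest there (25.0 to 31.8), and Pappa is at 1.82 to 1.95 in siCtrl and 3.21 to 3.39 in siPRMT1 cells at day 3.

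The first comparison asks how PRMT1 depletion changed these transcripts at day 1. Igf1 fell and Igfbp6, the gene of a binding protein that prefers IGF2, rose in siPRMT1 cells, and the other 5 genes tested were not called. Calls required both an adjusted p under 0.05 and a log2 fold change of over 0.5 in size. Thus 1 of the 7 genes was called higher, beside 1.95% of the 13689 genes tested, and 1 of the 7 lower, beside 1.61%. The median log2 fold change of the 7 was 0.18, against 0.01 over all genes tested.

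Igf1 (GRCm38 chr10:87858265-87937047, plus strand) was at 3.18, 2.95 and 2.16 FPKM in the siCtrl libraries and at 1.78, 1.53 and 1.66 in the siPRMT1 libraries at day 1. All siPRMT1 libraries lay below all siCtrl libraries, and the siCtrl library nearest to them was replicate 3. The log2 fold change was -0.79 (SE 0.152, adjusted p = 0.0212), a 1.73-fold lower level. Leaving out siCtrl replicate 3 gave -0.95 (adjusted p = 1.94e-05), and leaving out any 1 of the other 5 libraries ended the call, with an adjusted p of up to 0.111. The call was also lost with limma on FPKM under each of 3 settings, at a log2 fold change of -0.49 to -0.69 and an adjusted p of 0.0502 to 0.133. Exons of Igf1 shared 0 bases with Igf1os, the opposite-strand gene at this locus, which had at most 2 counts per library.

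Igfbp6 (chr15:102144186-102149512, plus strand) was at 15.2, 15.7 and 19.04 FPKM with siCtrl and 25.6, 25.0 and 31.8 with siPRMT1 at day 1. The conditions did not overlap. Its log2 fold change was 0.67 (SE 0.121, adjusted p = 0.0175), a 1.59-fold higher level. The value was 0.77 without siCtrl replicate 3 (adjusted p = 1.87e-04), and the call was lost without siCtrl replicate 2 or any 1 of the 3 siPRMT1 libraries, with an adjusted p of up to 0.086, or with limma without a filter (adjusted p = 0.0628).

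The promoter windows of Igf1 and Igfbp6 are shown because these were the genes called at day 1. Windows of 250 bases before to 50 after a RefSeq transcript start, credited to RefSeq on build GRCm38.p6, were listed for 8 of the 9 genes, all but Pappa. The Igf1 window (chr10:87860861-87861160, plus strand) surrounds a start at 87861111, inside the gene, and the Igfbp6 window (chr15:102143936-102144235, plus strand) surrounds the first base of the gene, 102144186. Capitals mark matches to a TATA box (TATAAA) or a CCAAT box (CCAAT) on either strand, and no match overlaps another.
Igf1: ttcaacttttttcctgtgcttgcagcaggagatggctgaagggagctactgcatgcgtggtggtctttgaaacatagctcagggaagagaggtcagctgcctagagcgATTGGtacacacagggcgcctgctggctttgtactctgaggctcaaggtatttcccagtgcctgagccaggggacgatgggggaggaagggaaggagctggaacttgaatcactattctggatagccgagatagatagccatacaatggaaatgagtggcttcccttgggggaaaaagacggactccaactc
Igfbp6: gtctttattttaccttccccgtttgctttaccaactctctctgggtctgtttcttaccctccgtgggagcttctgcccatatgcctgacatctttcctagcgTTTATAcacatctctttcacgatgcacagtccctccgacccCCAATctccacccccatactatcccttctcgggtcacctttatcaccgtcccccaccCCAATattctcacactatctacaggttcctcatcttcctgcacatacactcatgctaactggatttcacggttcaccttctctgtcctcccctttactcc
The Igf1 window held 1 CCAAT match on the minus strand, from 142 to 138 bases before the start. The Igfbp6 window held CCAAT matches on the plus strand beginning 107 and 50 bases before the start and a TATAAA match on the minus strand from 148 to 143 bases before it. Of all 32851 windows, 37.4% held CCAAT and 13.6% held TATAAA. A GC box (GGGCGG), found in 35.7% of all windows, was in 3 of the 9 windows of these genes, those of Igf1r and Igfbp7 and 1 of the 2 Igfbp2 windows. A STAT site (TTCNNNGAA, 8.3% of all windows) and a cAMP response element (TGACGTCA, 1.79%) matched in 0 of the 9, which says only that these letters are not in these windows.

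Among the genes that were not called at day 1, Igfbp3, the main serum carrier of IGFs, was at 4.51, 3.89 and 4.95 FPKM with siCtrl and at 5.74, 6.77 and 5.99 with siPRMT1. The conditions did not overlap, and the log2 fold change was 0.42 (SE 0.117, adjusted p = 0.0662). Without siCtrl replicate 3 the adjusted p was 0.0047 at a log2 fold change of 0.48, under the fold threshold. Igf1r was at 4.83 to 5.57 FPKM in siCtrl and 5.81 to 6.34 in siPRMT1 cells, with a log2 fold change of 0.18 (adjusted p = 0.232). Igfbp4 (log2 fold change 0.10, adjusted p = 0.41), Igfbp7 (-0.12, adjusted p = 0.445) and Pappa (0.18, adjusted p = 0.356) had overlapping conditions. Once siCtrl replicate 3 was left out, the log2 fold change was 0.12 for Igf1r, -0.02 for Igfbp7 and 0.07 for Pappa. For Igfbp4 it was then 0.16, with an adjusted p of 0.0422 but under the fold threshold. Exons of Igfbp7 share 89 bases with Polr2b and 93 with Gm34648, both on the opposite strand, with 3250 to 10619 and 34 to 108 counts per library, and the strand setting of the counting is not given in the sources used here, so reads over those bases cannot be told apart.

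The same comparison at day 3 found Pappa changed. Pappa was called higher in siPRMT1 cells, and the other 6 genes tested were not called. Thus 1 of the 7 was called higher, beside 2.84% of the 14039 genes tested, and 0 lower, beside 3.8%. Of genes with a lower level, Igf1 alone had an unadjusted p under 0.05, and DESeq2 also called 0 lower. Such a p, in either direction, was found for 4388 of the 14039 genes tested. The median log2 fold change of the 7 was 0.10, against 0.01 over all genes tested.

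Pappa (chr4:65124174-65357512, plus strand) was at 1.95, 1.82 and 1.84 FPKM with siCtrl and 3.21, 3.21 and 3.39 with siPRMT1 at day 3. Replicates lay close together and the conditions were well apart. The log2 fold change was 0.80 (SE 0.0809, adjusted p = 1.3e-05), a 1.74-fold higher level, and it was 0.76 to 0.82 with any 1 library left out, called each time.

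Igfbp3 was again higher in every siPRMT1 library, with 8.10, 8.25 and 7.50 FPKM against 6.23, 6.42 and 6.16, and passed the p threshold but not the fold threshold (log2 fold change 0.34, SE 0.089, adjusted p = 0.017). Igf1 was at 3.13, 2.81 and 2.26 FPKM in siCtrl and at 2.17, 2.19 and 2.27 in siPRMT1 cells. The conditions overlapped by replicate 3 of each, and the log2 fold change was -0.31 (SE 0.108, adjusted p = 0.0665). Igfbp7, a carrier of low affinity for IGFs, was at 146 to 155 FPKM in siCtrl and 157 to 186 in siPRMT1 cells, with a log2 fold change of 0.21 (adjusted p = 0.0614). Igfbp6 was at 11.97, 12.3 and 10.9 against 10.3, 12.8 and 14.6 FPKM, with a log2 fold change of 0.10 (adjusted p = 0.595) that was -0.03 without siPRMT1 replicate 3. Igfbp4 (log2 fold change -0.11, adjusted p = 0.268) and Igf1r (-0.04, adjusted p = 0.733) were not called.

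**Figure D2:**
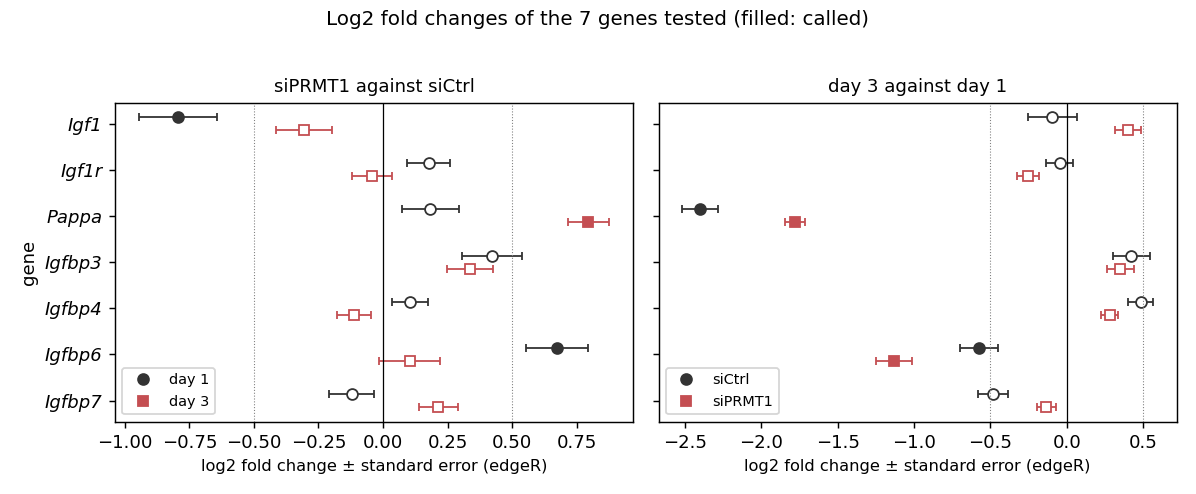
Log2 fold change (x axis, with its standard error from edgeR) of the 7 genes tested (y axis), for siPRMT1 against siCtrl at each day (left) and for day 3 against day 1 in each kind of cell (right); filled symbols mark called genes and dotted lines a log2 fold change of 0.5 either way. At left Igf1 (-0.79) and Igfbp6 (0.67) are called at day 1 and Pappa (0.80) at day 3, and at right Pappa and Igfbp6 are called lower at day 3 in both kinds of cell.

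Whether the knockdown acted differently at the days was tested with all 12 libraries in an interaction term, the log2 fold change at day 3 minus that at day 1. Igfbp5 passed the count filter here, so 8 of the 9 genes were tested. Pappa was called, with an interaction of 0.63 (SE 0.129, adjusted p = 0.00605). Thus 1 of the 8 was called higher, beside 4.77% of the 14612 genes tested, and 0 lower, beside 3.47%. Of negative interactions 1, that of Igfbp6, had an unadjusted p under 0.05, and DESeq2 called it. Among all 14612 genes tested, 3983 had such a p in either direction. The Pappa interaction was called with any 1 library left out, between 0.56 and 0.71.

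For Igf1 and Igfbp6 the call of a difference between the days depended on the setting. The interaction was 0.51 for Igf1 (SE 0.192, adjusted p = 0.101) and -0.55 for Igfbp6 (SE 0.189, adjusted p = 0.0708), neither of them called. Without siCtrl replicate 3 of day 1 both were called, at 0.63 (adjusted p = 0.00659) and -0.68 (adjusted p = 0.00822). Igfbp6 was also called without siPRMT1 replicate 3 of day 3, with DESeq2 (-0.56, adjusted p = 0.042) and without a count filter (-0.51, adjusted p = 0.0319), as was Igf1 without a count filter (0.55, adjusted p = 0.0177). The remaining interactions were 0.36 for Igfbp7 (adjusted p = 0.077), -0.20 for Igf1r (adjusted p = 0.258), -0.20 for Igfbp4 (adjusted p = 0.213), -0.06 for Igfbp3 (adjusted p = 0.825) and 1.31 for Igfbp5 (SE 0.875, adjusted p = 0.361). With siCtrl replicate 3 of day 1 left out they were 0.22 for Igfbp7 (adjusted p = 0.102), -0.18 for Igf1r, -0.29 for Igfbp4 (adjusted p = 0.0187, under the fold threshold), -0.16 for Igfbp3 and 1.08 for Igfbp5.

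The course from day 1 to day 3 was then compared within each kind of cell. These comparisons share libraries with the knockdown comparisons and are given side by side. Pappa and Igfbp6 fell in both kinds of cell. In siCtrl cells 2 of the 7 were called lower, beside 20.4% of the 13829 genes tested, and 0 higher, beside 22.7%. In siPRMT1 cells 2 of the 7 were called lower, beside 17.4% of the 14224 genes tested, and 0 higher, beside 19%. With an unadjusted p under 0.05, 2 were higher in siCtrl and 3 in siPRMT1 cells, and DESeq2 called 0 higher in either. Over all genes tested, 8776 of 13829 and 9477 of 14224 had such a p in either direction.

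Pappa fell from 9.44 ± 1.30 to 1.87 ± 0.07 FPKM (SD, n = 3) in siCtrl cells, a 5.29-fold lower level (log2 fold change -2.40, SE 0.116, adjusted p = 1.25e-07). In siPRMT1 cells it fell from 11.1 ± 0.641 to 3.27 ± 0.104 FPKM, a 3.43-fold lower level (log2 fold change -1.78, SE 0.0679, adjusted p = 6.04e-11). In order of level Pappa was highest in siPRMT1 cells at day 1, overlapping siCtrl cells of that day, followed by siPRMT1 and then siCtrl cells at day 3, neither overlapping its neighbour.

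Igfbp6 fell from 16.7 ± 2.07 to 11.7 ± 0.734 FPKM in siCtrl cells (log2 fold change -0.58, SE 0.124, adjusted p = 0.00262) and from 27.5 ± 3.76 to 12.6 ± 2.18 in siPRMT1 cells (-1.13, SE 0.118, adjusted p = 1.54e-06). Without siCtrl replicate 3 of day 1 the change in siCtrl cells was -0.48 (adjusted p = 5.77e-04), under the fold threshold. The siPRMT1 level at day 1 stood above all other conditions, and the levels at day 3 overlapped.

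Other genes moved between the days at an adjusted p under 0.05 but below the fold threshold. The log2 fold change in siCtrl and siPRMT1 cells was 0.48 (adjusted p = 5.4e-04) and 0.28 (adjusted p = 6.34e-04) for Igfbp4, and 0.42 (adjusted p = 0.0131) and 0.35 (adjusted p = 0.00329) for Igfbp3. Without siCtrl replicate 3 of day 1 Igfbp4 was called higher in siCtrl cells, at 0.54 (adjusted p = 4.49e-06). For Igfbp7 it was -0.48 in siCtrl cells (adjusted p = 0.00204) and -0.13 in siPRMT1 cells (adjusted p = 0.0892), and it was called lower in siCtrl cells without replicate 1 or 2 of day 1 or replicate 2 or 3 of day 3. Igf1 gave -0.09 in siCtrl cells (adjusted p = 0.638) and 0.40 in siPRMT1 cells (adjusted p = 9.41e-04), where its level at day 1 was the lowest of the 4 conditions and overlapped no other. Igf1r gave -0.05 (adjusted p = 0.675) and -0.26 (adjusted p = 0.00674). With replicate 3 of siCtrl at day 1 left out, the change in siCtrl cells was -2.52 for Pappa, 0.49 for Igfbp3, -0.38 for Igfbp7, -0.25 for Igf1 and -0.11 for Igf1r.

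Since FPKM is per gene length, the 6 binding protein genes could be added to a pool. Its size overlapped between siCtrl and siPRMT1 cells on both days. It was 389 ± 40.3 and 410 ± 20.5 summed FPKM at day 1 (log2 ratio 0.08, two-sided exact permutation p = 0.5) and 415 ± 12.8 and 424 ± 23.7 at day 3 (log2 ratio 0.03, exact permutation p = 0.6), and the log2 ratio at day 1 was 0.16 without siCtrl replicate 3. With 3 libraries against 3 the smallest p this test allows is 0.1, so no pool comparison could pass 0.05.

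Pool size relative to Igf1 was 113, 127 and 201 FPKM per Igf1 FPKM in siCtrl and 229, 256 and 261 in siPRMT1 libraries at day 1. The conditions did not overlap (log2 ratio 0.80, exact permutation p = 0.1), and without siCtrl replicate 3 the log2 ratio was 1.05. As the pool itself had a log2 ratio of 0.08, this mostly restates the lower Igf1 level (log2 fold change -0.79). At day 3 pool size relative to Igf1 was 155 ± 27.3 and 192 ± 8.31 (log2 ratio 0.33, exact permutation p = 0.2), with overlap. Igf2, given further on, is left out of this ratio.

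The makeup of the pool at day 1 was 43.3% ± 1.11 Igfbp4, 51.3% ± 1.03 Igfbp7 and 4.28% ± 0.0909 Igfbp6 in siCtrl cells (SD, n = 3). In siPRMT1 cells these shares were 45.5% ± 0.72, 46.3% ± 1.2 and 6.67% ± 0.591. The differences, siPRMT1 minus siCtrl, were 2.27, -5.0 and 2.39 percentage points. Without siCtrl replicate 3 they were 1.63, -4.41 and 2.44. At day 3 Igfbp4 held 59.5% ± 0.335 in siCtrl and 54.0% ± 1.61 in siPRMT1 cells, Igfbp7 held 36.2% ± 0.144 and 41.1% ± 1.49, and Igfbp6 held 2.83% ± 0.174 and 2.95% ± 0.368. Conditions overlapped for the Igfbp6 share at day 3 (exact permutation p = 0.7) and not for the other 5 pairs of shares given (exact permutation p = 0.1 each, the smallest possible). Shares within a library add to a whole, so that a rise of 1 gene lowers the others. The level of Igfbp4, a PAPP-A substrate, was 15.1 to 22.9 FPKM per Pappa FPKM in siCtrl and 15.5 to 19.2 in siPRMT1 libraries at day 1. The value of 22.9 was that of siCtrl replicate 3, and the other siCtrl libraries were at 15.1 and 16.5. At day 3 the Igfbp4 level per Pappa FPKM was 122 to 140 in siCtrl and 69.0 to 71.5 in siPRMT1 libraries, with no overlap. Igfbp4 was not called at day 3 (log2 fold change -0.11) and Pappa was (0.80), so this ratio mostly restates the Pappa call.

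**Figure D3:**
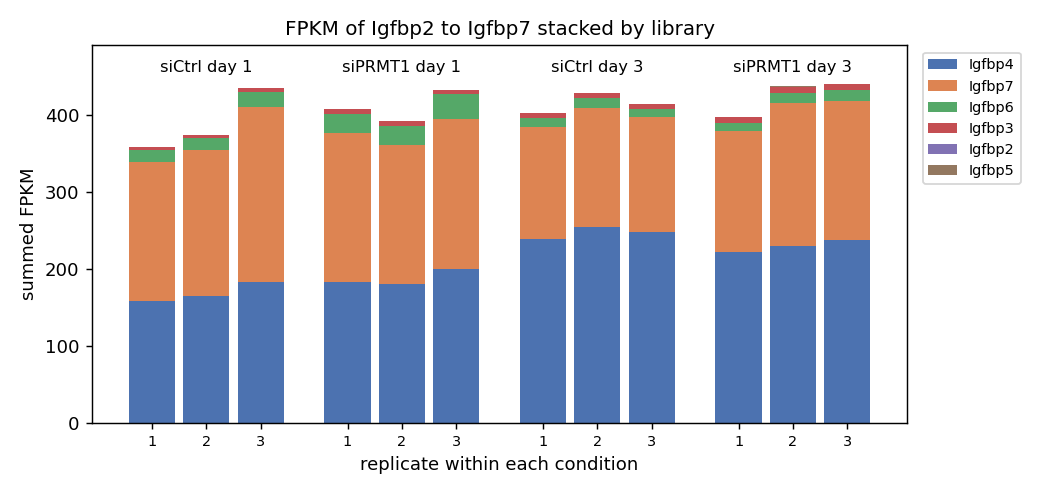
Summed FPKM (y axis, linear from 0) of the 6 binding protein genes in each of the 12 libraries (x axis, replicates within conditions), stacked by gene. The total stays between 358 and 440, Igfbp4 and Igfbp7 make up most of every bar, and Igfbp6 is tallest in the siPRMT1 bars at day 1.

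Other genes of the IGF system were followed as a list of 30, likewise chosen with earlier results of these data known. At day 1, 24 of them were tested, of which 3 were called, each lower with siPRMT1, beside the 1.61% of all genes called lower and 1.95% called higher. The median log2 fold change of the 24 was -0.05, against 0.01 over all genes tested. Of the 3 ligand and receptor genes 1 was called, and of the 5 growth hormone axis genes 2. The 11 adaptor and signalling genes, 3 Igf2 mRNA binding genes and 2 carrier and protease genes tested were not called.

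Igf2, the gene of the other IGF, was at 0.78, 0.55 and 0.58 FPKM with siCtrl and 0.23, 0.21 and 0.28 with siPRMT1 at day 1 (log2 fold change -1.47, SE 0.209, adjusted p = 0.00744), a level resting on 27 to 34 counts per siPRMT1 library. Ghr, the growth hormone receptor gene, was at 101, 92.9 and 71.6 against 63.2, 66.2 and 61.5 FPKM (-0.53, SE 0.122, adjusted p = 0.037). Stat5a, the gene of a transcription factor activated by that receptor, was at 16.2, 16.02 and 20.8 against 12.6, 11.9 and 13.7 FPKM (-0.52, SE 0.11, adjusted p = 0.0275). The conditions of all 3 genes did not overlap. Without siCtrl replicate 3 the log2 fold change was -1.56 for Igf2 (adjusted p = 2.59e-04), -0.67 for Ghr (adjusted p = 1.18e-05) and -0.40 for Stat5a (adjusted p = 8.11e-04), the last under the fold threshold. Leaving out any 1 of the other 5 libraries ended the Ghr call, leaving out any library but siCtrl replicate 1 ended the Stat5a call, and leaving out siPRMT1 replicate 2 ended the Igf2 call. The Ghr and Stat5a calls also ended with limma on FPKM under each of 3 settings (adjusted p up to 0.153 and 0.133), and Stat5a also with both libraries of replicate 3 left out (log2 fold change -0.45). With limma on log2(FPKM + 1) without a filter, Igf2 kept an adjusted p of 0.0481 but fell under the fold threshold (log2 fold change -0.40). That setting adds 1 to each FPKM value, and those of Igf2 were 0.21 to 0.78.

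At day 3, 25 of the 30 were tested, 1 was called higher and 1 lower, near the 2.84% and 3.8% of all genes, and their median was -0.04, against 0.01 over all genes. Stc1, the gene of the PAPP-A inhibitor stanniocalcin-1, was at 4.03, 3.23 and 3.22 FPKM with siCtrl and 2.28, 1.69 and 1.83 with siPRMT1 (log2 fold change -0.87, SE 0.132, adjusted p = 3.77e-04), with no overlap and called with any 1 library left out. Grb10, the gene of an adaptor that dampens insulin and IGF1 receptor signalling, was at 0.71, 0.59 and 0.58 against 1.08, 0.85 and 0.88 FPKM (0.57, SE 0.153, adjusted p = 0.0194), and its call was lost without siCtrl replicate 2, siCtrl replicate 3 or siPRMT1 replicate 1, with DESeq2 (adjusted p = 0.0529), with limma without a filter (adjusted p = 0.121) and with both libraries of replicate 3 left out (adjusted p = 0.0836). Pappa2, the gene of a related protease, was at 0.20 to 0.21 FPKM in siCtrl and 0.18 to 0.21 in siPRMT1 cells at day 3 (log2 fold change -0.09, adjusted p = 0.743). At day 1 it had been at 0.54 to 0.80 and 0.96 to 1.25 FPKM, where the value of 0.54 was that of siCtrl replicate 3. The conditions did not overlap then, and it was not called (log2 fold change 0.58, adjusted p = 0.082). Ghr was at 93.5 to 104 and 101 to 110 FPKM at day 3 (log2 fold change 0.11, adjusted p = 0.3), and its interaction was called, at 0.65 (adjusted p = 0.00584). The interactions of Igf2 (1.06, adjusted p = 0.00634) and Stc1 (-0.91, adjusted p = 0.00529) were called as well. Without siCtrl replicate 3 of day 1 they were 0.76 for Ghr, 1.11 for Igf2 and -0.91 for Stc1, each called. At day 3 Igf2 averaged 10.99 ± 1.33 FPKM with siCtrl and 8.07 ± 0.382 with siPRMT1 (log2 fold change -0.45, adjusted p = 0.00356), and Stat5a 26.1 ± 1.58 and 20.2 ± 1.91 (-0.37, adjusted p = 0.00526). Neither overlapped between the conditions and both lay under the fold threshold, though Igf2 was called lower without siCtrl replicate 3 (-0.55, adjusted p = 0.00122) and with both libraries of replicate 3 left out (-0.59).

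**Figure D4:**
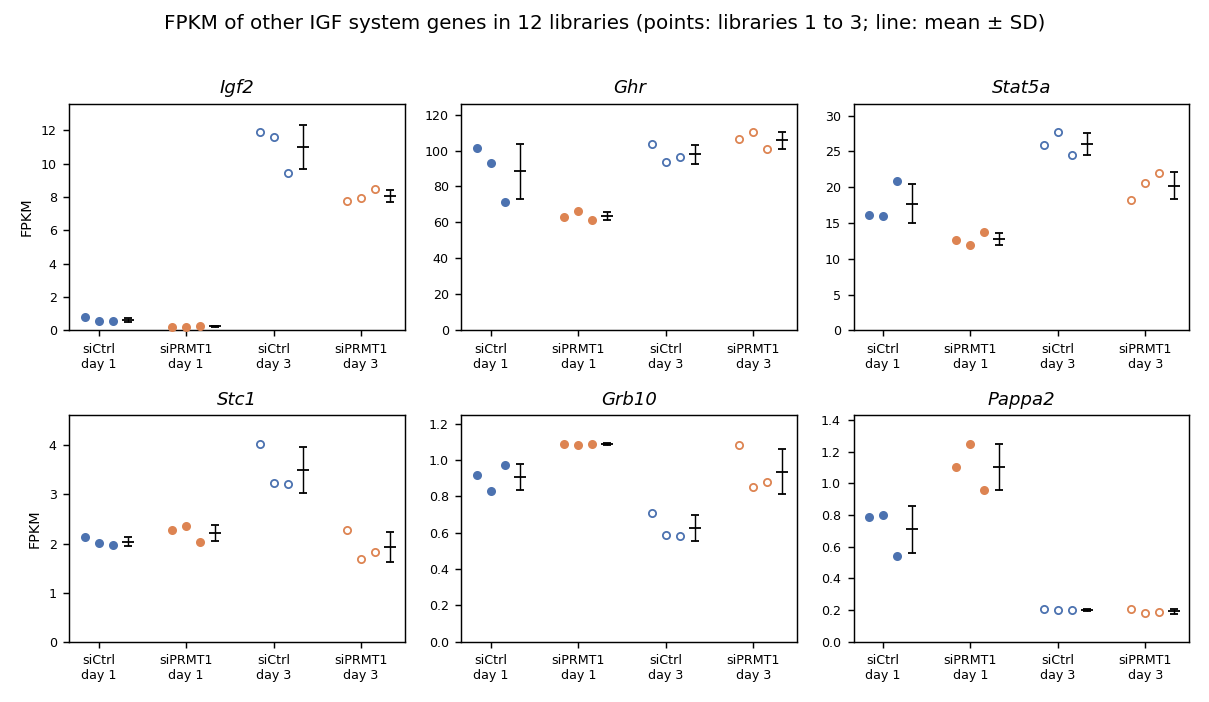
FPKM (y axis, linear from 0, own scale per gene) of Igf2, Ghr, Stat5a, Stc1, Grb10 and Pappa2 in 4 conditions (x axis), with 1 point per library in replicate order, filled at day 1 and open at day 3, and the mean ± SD beside them. Ghr is lowest in siPRMT1 cells at day 1 (61.5 to 66.2), and Stc1 at day 3 is at 3.22 to 4.03 in siCtrl and 1.69 to 2.28 in siPRMT1 cells.

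Between the days, 7 of the 25 tested genes of that list were called higher and 6 lower in siCtrl cells, beside 22.7% and 20.4% of all genes, and 6 higher and 3 lower in siPRMT1 cells, beside 19% and 17.4%. With shares this near those of all genes, the counts are no result about the list. In both kinds of cell Igf2 rose (log2 fold change 4.01 and 5.05), as did the receptor substrate gene Irs1 (1.52 and 1.83) and the kinase gene Akt2 (1.15 and 0.75). Pappa2 fell (-1.89 and -2.56), and so did Igf2r, the gene of a receptor that clears IGF2 (-1.50 and -1.06), and the kinase gene Jak2 (-1.21 and -1.06). The adjusted p of these 12 changes was at most 1.52e-04. With siCtrl replicate 3 of day 1 left out, the Igf2 change in siCtrl cells was 3.91. That setting is not given here for Irs1, Akt2, Pappa2, Igf2r and Jak2. Unlike Pappa, Pappa2 had its larger fall in siPRMT1 cells, but its interaction was not called (-0.65, adjusted p = 0.0941). Igfals, the gene of the acid-labile subunit that joins circulating IGF complexes, was also called higher in both, but it had 4 to 14 counts per library at day 1 and 30 to 44 at day 3 and passed the count filter only through day 3.

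The genes whose pattern was most like that of a called member were found by Pearson's r of log2 CPM over the 12 libraries, among the 9318 genes that averaged 10 CPM or more. Libraries of a condition share their treatment, so r is a description. For Igf1 they were Lancl2 (r = 0.948), Rhoa (0.892) and Klhdc10 (0.886). For Igfbp6 they were Stk40 (r = 0.978), Flnc (0.976) and Mylip (0.975). For Pappa they were Prune2 (r = 0.998), Atp1b1 (0.997) and Adam23 (0.996), and Prune2 averaged 18.8 (siCtrl) and 21.1 (siPRMT1) FPKM at day 1, then 4.26 and 6.76 at day 3.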

How the data were processed

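RNA-seq of 12 libraries of 3T3-L1 cells (MGIEasy mRNA kit) was used as deposited. According to the submitters' processing notes and methods, reads were trimmed with cutadapt 1.11 and mapped to mouse reference transcripts (mm10) with HISAT2 2.1.0, and RSEM 1.2.6 is listed. The counts deposited by the authors were whole numbers without normalization, and their counting tool, strand setting and handling of reads with several matches are not given in the sources used here. FPKM values deposited by the authors were recomputed from counts and exon lengths and differed by at most 0.005.

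Counts of all genes were tested with edgeR 4.0.16 (R 4.3.3): TMM scaling, filterByExpr and quasi-likelihood tests, with Benjamini-Hochberg adjustment over all genes tested. Calls required both an adjusted p under 0.05 and a log2 fold change of over 0.5 in size. SE was the absolute log2 fold change over the square root of F. Alternatives were DESeq2 1.42.0, RLE scaling, other count filters, any fold change, a replicate block, all libraries in 1 model, limma 3.58.1 on log2(FPKM + 1) or log2(FPKM + 0.1), each library left out and, added after the data were seen, both libraries of replicate 3 left out. The scripts were tested on simulated data. Pool values used two-sided exact permutation tests. Motifs were counted on both strands, palindromic sites once.

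The 9 genes and the lists were chosen with earlier results of these data known. Named were the 9 genes, Prmt1, genes of the IGF system list called at either day, and the 3 genes most like each called member. Igfals, Irs1, Akt2, Pappa2, Igf2r and Jak2 were named after their values were seen, as the genes of that list called in the same direction in both courses.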

Additional observations from a re-analysis of the deposited data

Results flagged for a closer look

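The effect of the knockdown differed between day 1 and day 3 for 4 of the 33 genes followed and tested, by the interaction term over 12 libraries (edgeR), which called 4.77% of all genes higher and 3.47% lower. The interaction, the log2 fold change at day 3 minus that at day 1, was 0.63 for Pappa (SE 0.129, adjusted p = 0.00605), 1.06 for Igf2 (SE 0.219, adjusted p = 0.00634), 0.65 for Ghr (SE 0.133, adjusted p = 0.00584) and -0.91 for Stc1 (SE 0.182, adjusted p = 0.00529). Pappa and Stc1, whose product inhibits PAPP-A, had knockdown log2 fold changes of 0.18 and 0.07 at day 1 and of 0.80 and -0.87 at day 3.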

How the results depend on the processing

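The number of the 9 genes called was 2 at day 1, and 1 with limma on log2(FPKM + 1) or log2(FPKM + 0.1), 0 with limma without a filter, and 0 to 2 with 1 library left out. At day 3 it was 1, and 2 at any fold change, when 16.5% of all genes passed. In the course it was 2 in both kinds of cell, and at any fold change 5 in siCtrl and 6 in siPRMT1 cells, when 58.9% and 63.4% of all genes passed. In siCtrl cells it was 3 with at least 10 counts in every library and 2 to 3 with 1 library left out. For the interaction it was 1, and 2 with DESeq2 (Igfbp6 added), 3 without a count filter, 2 with a replicate block (Igfbp6 added, -0.56, adjusted p = 0.0286) and 1 to 3 with 1 library left out. With both libraries of replicate 3 left out, Igfbp3 was also called at day 1 (0.51, adjusted p = 0.00504).

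Nothing in the labels says whether same-numbered libraries of siCtrl and siPRMT1 shared more than a number. The correlation of their deviations was -0.0316, 0.128 and 0.216 at day 1 and 0.16, 0.0788 and -0.0204 at day 3. Some libraries correlated best with their own number and others did not. With 3 libraries per condition these values cannot decide whether libraries were paired. The replicate block moved the genes called at day 1 from 267 higher and 220 lower to 296 and 240.

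Small changes turned direction. The log2 fold change of Igfbp6 at day 3 was -0.0731 with both libraries of replicate 3 left out and -0.0269 to 0.22 with 1 left out. With 1 library left out, Stc1 at day 1 ranged from -8.29e-04 to 0.12, Igf1 in the siCtrl course from -0.25 to 0.00785, Ghr there from -0.0647 to 0.17, and the Igfbp3 interaction from -0.16 to 0.0145. The cause was not tested. Igfbp2 and Igfbp5 had few counts, at most 5 and 17 per library. Genes called at day 1 over all genes numbered 61 higher and 62 lower without siPRMT1 replicate 3 and 504 and 369 without siCtrl replicate 3.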
